A study of Mus musculus with 6 samples.

Results

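This account follows 37 macrophage and monocyte genes through mouse uteri that were made to express SF1, the nuclear receptor encoded by Nr5a1. The genes were listed by name as known genes of macrophages, monocytes and the leukocytes they belong to. No measured value enters the rule, but the list was drawn up with earlier results of these data known. All 37 of 37 had at least 1 probe set annotated to that symbol alone, out of 18193 genes measured. These genes had 66 probe sets in all, and the brightest of each gene, averaged over the 6 arrays, stands for it below.

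Uteri labelled Pgrcre/+ SF1LsL/+ (SF1 below) made up 3 arrays. Littermate uteri labelled SF1LsL/+ (control) made up the other 3. All mice were C57BL6J and all carried the SF1LsL transgene, which is silent by design until Cre acts on it. In the SF1 group Cre came from the Pgr locus, so the transgene is directed to cells that use the progesterone receptor promoter and not to macrophages as such. Cre, SF1 and the altered Pgr allele differed together between the groups and cannot be told apart. Each array held pooled RNA of 2 uteri, taken as horns without cervix 2 weeks after surgery. The sources used here give neither the kind of surgery nor the age of the mice.

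Macrophages of the uterus derive from blood monocytes and from longer-lived resident cells, and they clear debris, remodel matrix and respond to ovarian hormones. Their growth and survival depend on the receptor Csf1r, bound by the growth factors Csf1 and Il34, and their identity on the transcription factor PU.1, the product of Spi1. Many of their surface receptors have no signalling tail of their own and pair with small adaptor proteins, Fcer1g and Tyrobp, which carry tyrosine motifs named ITAMs that recruit the kinase Syk.

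Of the 37 genes, 14 rose in SF1 uteri, 0 fell and 23 were not called (limma, Benjamini-Hochberg adjusted p under 0.05 over all probe sets). At an unadjusted p under 0.05, 22 of the 37 were higher and 0 lower, against 2483 higher and 3345 lower of all 18193 genes. The 14 called genes are 37.8% of the 37, against 8.37% of all genes called higher and 8.11% called lower. Of all calls, 50.8% were higher in SF1, and 62.8% after median centring of the arrays, where 17 of the 37 genes were higher and 0 lower. The median log2 fold change was 0.63 over the 37 genes and -0.05 over all genes. The rises ran from 1.45-fold for Fcgr1 to 2.73-fold for Aif1, and the next largest were those of the leukocyte genes Cd53 and Ptprc. The macrophage markers Adgre1 (log2 fold change 0.71) and Csf1r (0.63) rose less, and Cd68 (0.30) was not called. Of 9 scavenger, lectin and uptake receptors, many of which mark particular macrophage states, Mrc1 rose and the other 8 were not called, with a median log2 fold change of -0.03 over all 9. Cd163, Marco, Timd4 and Siglec1 among them were dim, below the median intensity of the arrays. Every SF1 array read above every control array for 22 genes (59.5%), against 16.2% of all genes. In whole tissue, more macrophages, more RNA of these genes per macrophage and RNA of other leukocytes that share some genes cannot be told apart.

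**Figure D1:**
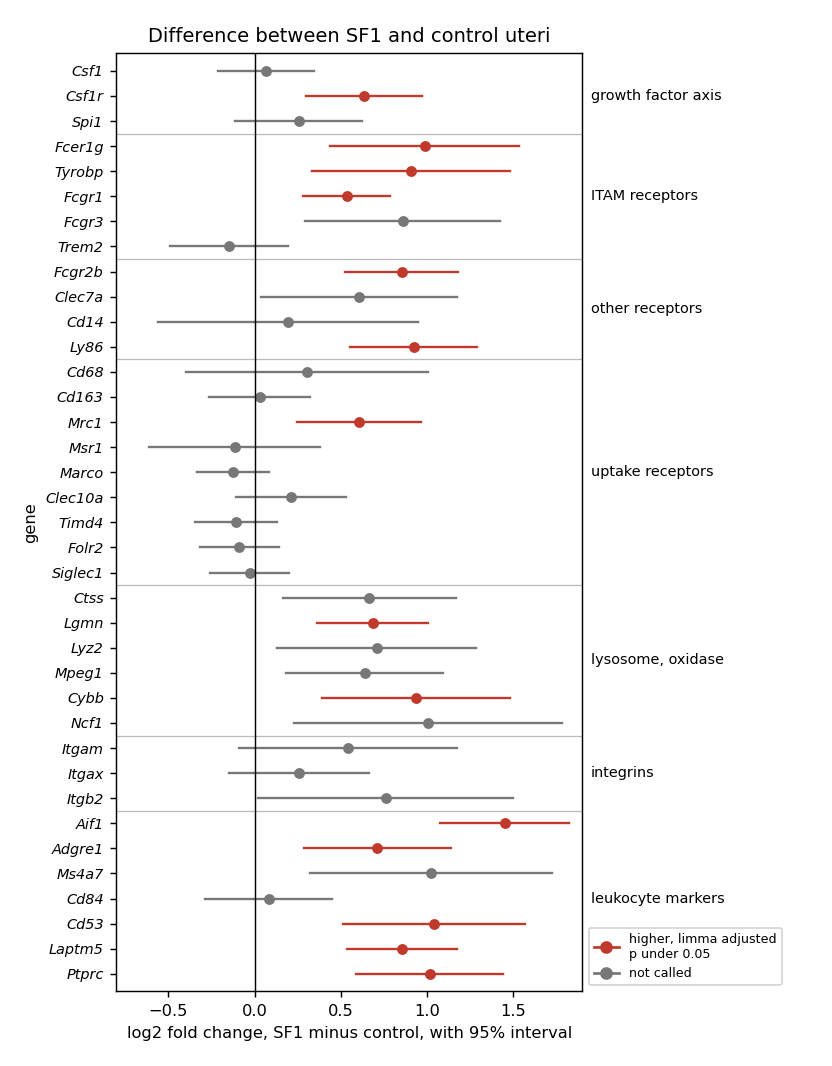
Log2 fold change of each gene, SF1 minus control (horizontal axis, on log2(intensity + 16)), with its 95% interval from limma, ordered by role down the page. Red marks the 14 genes called higher and grey the 23 not called. Of the uptake receptors Mrc1 alone is red and the intervals of the others include 0, while 5 of the 7 leukocyte markers are red.

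The panel of arrays was even in scale. Median intensities lay between 149.9 and 159.6 in SF1 arrays and between 159 and 162.2 in control arrays. For beta-actin, 3′ signal divided by 5′ signal, a sign of RNA quality, lay between 2.12 and 2.34 in SF1 and between 2.39 and 2.58 in control. For Gapdh this ratio overlapped between groups, at 1.47 to 1.66 in SF1 and 1.53 to 1.70 in control. The part of RNA quality in the results below was not tested. All probe set values below are intensities on a linear scale, given for replicates 1, 2 and 3 in that order, and fold changes are on log2(intensity + 16), which understates the change of dim genes. Errors of log2 fold changes are standard errors. The replicates are separate pools, and the p-values measure the spread between these pools.

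The leukocyte and macrophage markers had the largest median log2 fold change of the roles, 1.01, with 5 of 7 risen. Aif1 encodes a calcium- and actin-binding protein that stains macrophages in tissue sections. It read 447, 321 and 278 in SF1 uteri, against 112, 102 and 133 in control uteri. The lowest SF1 pool was above 2 times the highest control pool, and the log2 fold change was 1.45 ± 0.17 (limma adjusted p = 0.000651). Ptprc encodes CD45, the phosphatase on the surface of all leukocytes. It read 1958, 2775 and 1601 in SF1 and 1055, 875 and 1118 in control (log2 fold change 1.01 ± 0.19, adjusted p = 0.00819). The groups did not overlap, and SF1 replicate 2 was the highest pool.

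Cd53, a leukocyte tetraspanin, read 967, 1593 and 834 in SF1 uteri and 558, 414 and 608 in control uteri (1.04 ± 0.23, adjusted p = 0.0194). Laptm5, a lysosomal membrane protein of blood cells, read 1076, 1346 and 1064 in SF1 and 680.1, 520.2 and 715 in control (0.85 ± 0.14, adjusted p = 0.00461). That value is of its brightest probe set, and the mean of all 5 Laptm5 probe sets gave 0.11 and was not called (limma adjusted p = 0.449). Adgre1 encodes F4/80, the receptor used to sort mouse macrophages. It read 921, 1097 and 762 in SF1 and 670.0, 416 and 608 in control (0.71 ± 0.19, adjusted p = 0.0377). None of these 3 genes overlapped between groups. For Adgre1 the call was lost without SF1 replicate 1 or 2 or control replicate 2 or 3 (highest adjusted p = 0.115), and for Cd53 without control replicate 1 (0.0514).

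The remaining markers were not called. Ms4a7, a membrane protein of macrophages, had 1 of the largest differences of all 37 genes but read 948, 1260.0 and 818 in SF1 and 702, 273 and 572 in control. The groups were separate, yet control replicate 2 lay far below the other control pools, and the log2 fold change of 1.02 ± 0.31 had an adjusted p of 0.0601 (limma). Cd84, an adhesion receptor shared by many leukocytes, read 326, 478 and 367 in SF1 and 429, 299 and 374 in control, with overlapping groups (log2 fold change 0.08, 95% interval -0.29 to 0.45).

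**Figure D2:**
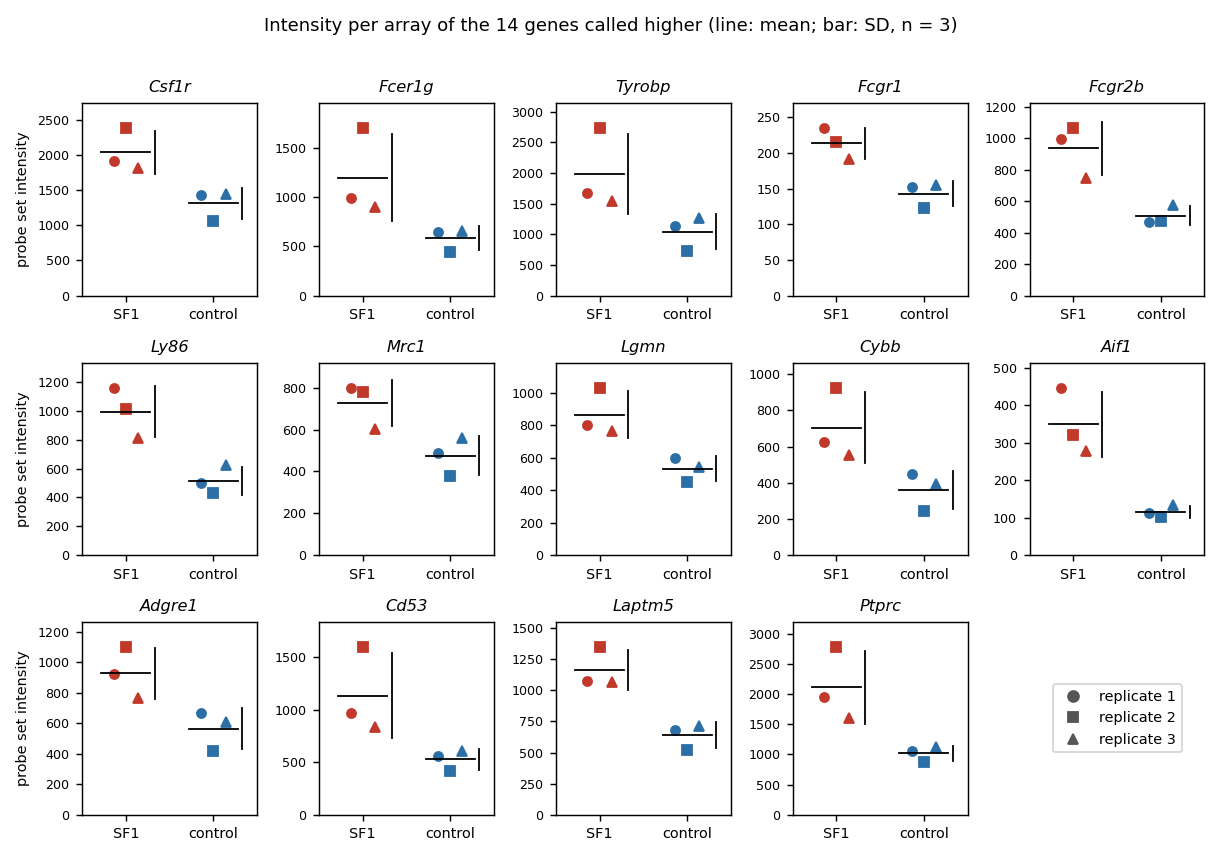
Probe set intensity (vertical axes, linear, from 0) of the 14 genes called higher, with SF1 left of control, 1 symbol per replicate, a line at the mean and a bar of 1 SD to its right (n = 3 pools a group). All 3 SF1 points lie above all 3 control points in each panel, and the squares of replicate 2 are often the highest SF1 and the lowest control value.

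In the growth factor axis the receptor rose and the ligand and lineage factor were not called. Csf1r read 1923, 2391 and 1816 in SF1 uteri, against 1434, 1059.6 and 1454 in control uteri. The pools did not overlap, and the log2 fold change was 0.63 ± 0.15 (limma adjusted p = 0.0238). Leaving out either of SF1 replicates 1 and 2 ended the call (limma adjusted p up to 0.0752). Csf1, the ligand that stromal and epithelial cells secrete, read 393, 557 and 472 in SF1 and 469.7, 429 and 443 in control. Its groups overlapped, with a log2 fold change of 0.07 and a 95% interval of -0.21 to 0.35. Its other 3 probe sets were not called either, with log2 fold changes of -0.21, 0.25 and 0.33. Spi1, which encodes PU.1, was dim, at 118, 174 and 111 in SF1 and 113, 91 and 122 in control (log2 fold change 0.26, 95% interval -0.11 to 0.62).

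Both ITAM adaptors rose, together with the high-affinity Fc receptor. Fcer1g, the gamma chain shared by Fc receptors, read 993, 1704 and 904 in SF1 uteri and 648, 443 and 660.3 in control uteri (0.98 ± 0.24, limma adjusted p = 0.0285). Tyrobp, the adaptor DAP12, read 1668, 2732 and 1546 in SF1 and 1139, 721 and 1268 in control (0.91 ± 0.25, adjusted p = 0.0466). In both genes the groups were separate, SF1 replicate 2 was well above the other SF1 pools and control replicate 2 well below the other control pools. Fcer1g lost its call without SF1 replicate 1 or control replicate 1 or 2 (highest adjusted p = 0.0641). The Tyrobp call held without control replicate 3 but was lost without any of the other 5 arrays (highest adjusted p = 0.114).

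Fcgr1, the receptor that binds single IgG molecules, read 235, 215 and 192 in SF1 uteri and 152, 122 and 155 in control uteri. Its pools were close together within each group, and it rose by 0.53 ± 0.11 (limma adjusted p = 0.014), a call lost without SF1 replicate 1 (0.0567). Fcgr3, the activating low-affinity receptor, had a larger difference between groups and a wider spread within them. It read 884, 1399.7 and 757 in SF1 and 661, 386 and 590.4 in control (0.86 ± 0.25, adjusted p = 0.0533) and was not called. Trem2, a lipid-sensing receptor that needs Tyrobp to signal, read 163, 245 and 233 in SF1 and 261, 205 and 242 in control. Its groups overlapped and its log2 fold change was -0.15 (95% interval -0.49 to 0.20). Its other probe set gave -0.11.

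Among the other receptors, Fcgr2b and Ly86 rose. Fcgr2b is the Fc receptor that inhibits the activating ones. It read 999, 1066 and 745 in SF1 uteri and 468, 477 and 579 in control uteri (0.85 ± 0.14, limma adjusted p = 0.00529). The coding sequences of Fcgr2b and Fcgr3 are closely alike over their outer domains, and cross-hybridisation between them was not tested. Ly86 (MD-1), the secreted partner of the toll-like receptor relative Cd180, read 1161, 1014 and 809 in SF1 and 499.8, 430.1 and 622 in control (0.92 ± 0.16, adjusted p = 0.00627). Here SF1 replicate 1, not 2, was the highest pool.

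Clec7a, the beta-glucan receptor dectin-1, read 749, 1188 and 805 in SF1 uteri and 706, 389 and 722 in control uteri (0.60 ± 0.25, limma adjusted p = 0.144). The groups were separate by a narrow margin and the gene was not called. Cd14, the co-receptor for bacterial lipopolysaccharide, read 1149, 3087 and 1149 in SF1 and 1333, 1376 and 1485 in control. A single SF1 pool, replicate 2, was above the control pools and the other 2 were below them, and the 95% interval of its log2 fold change ran from -0.56 to 0.95.

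The lysosomal and oxidase genes were all higher in every SF1 pool than in any control pool, but 2 of 6 passed the test. Lgmn, the protease legumain, read 799, 1032 and 766 in SF1 uteri and 600.4, 449.6 and 545 in control uteri (0.68 ± 0.14, limma adjusted p = 0.0136). Cybb, the catalytic chain of the phagocyte oxidase, read 627, 926 and 556 in SF1 and 449, 244 and 391 in control (0.94 ± 0.24, adjusted p = 0.0341). Cybb lost its call without SF1 replicate 1 or 2 or control replicate 2 or 3 (highest adjusted p = 0.096).

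Ctss (cathepsin S, which trims the class II chaperone) read 5019, 5431 and 4658 in SF1 uteri and 3562, 2109 and 4204 in control uteri (0.67, limma adjusted p = 0.0811). Lyz2, the lysozyme of macrophages and neutrophils, read 4852, 6775 and 4458 in SF1 and 4105, 2115 and 3850.3 in control (0.71, adjusted p = 0.101). Mpeg1, a pore-forming protein of phagocytes, read 1624, 2053 and 1292 in SF1 and 1263, 797 and 1113 in control (0.64, adjusted p = 0.0685). In each of these, control replicate 2 was the lowest of all 6 pools by a wide margin. Ncf1, a cytoplasmic subunit of the oxidase, read 227, 631 and 219 in SF1 and 154, 133 and 164 in control (1.01 ± 0.34, adjusted p = 0.0865). Its SF1 mean rested on replicate 2, and without that pool the difference was smaller but called (0.53 ± 0.11, adjusted p = 0.0221). Without control replicate 2 Ncf1 was not called (0.93, limma adjusted p = 0.165). Its other probe sets, at 0.05 and 0.63, were not called either.

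None of the 3 integrin chains was called by limma, and 1 of them, Itgb2, had an unadjusted p under 0.05. Itgb2, the beta chain that the leukocyte integrins share, read 502, 929.6 and 534 in SF1 uteri and 462, 212 and 493 in control uteri (0.76 ± 0.32, limma adjusted p = 0.157). Itgam, the CD11b chain of macrophages and neutrophils, read 63.8, 171 and 76.3 in SF1 and 61.5, 51.2 and 69.7 in control, with the other 5 pools close together below SF1 replicate 2 (0.54 ± 0.28, adjusted p = 0.228). Itgax, the CD11c chain, overlapped between groups at 259, 351 and 325 in SF1 and 248, 200.0 and 337 in control.

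The uptake receptors differed from the rest of the genes in their counts, with 1 of 9 risen and a median log2 fold change of -0.03. That difference between sets of genes was not tested. Mrc1, the mannose receptor, was the 1 that rose, at 800.3, 779.7 and 603 in SF1 uteri and 489.6, 376 and 559.6 in control uteri (0.61 ± 0.16, limma adjusted p = 0.037). The call was lost without SF1 replicate 1 or 2 or control replicate 1 or 2 (highest adjusted p = 0.125). Cd68, a glycoprotein of late endosomes, read 329, 604 and 381 in SF1 and 469.6, 202 and 409 in control. Its pools varied over a wide range in both groups and overlapped (0.30, 95% interval -0.40 to 1.01).

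Msr1, the class A scavenger receptor, read 248, 337 and 268 in SF1 uteri and 374, 205 and 373 in control uteri. Control replicates 1 and 3 exceeded every SF1 pool and control replicate 2 lay under all of them (-0.12, 95% interval -0.61 to 0.38). Clec10a, a galactose-binding lectin, read 281, 295 and 214 in SF1 and 201, 208 and 265 in control (0.21, -0.11 to 0.53). Cd163, which takes up haptoglobin-bound haemoglobin, read 161, 116 and 119 in SF1 and 112, 135 and 136 in control (0.03, -0.26 to 0.32). Folr2, the beta folate receptor of resident macrophages, read 157, 175 and 153 in SF1 and 191, 151 and 178 in control (-0.09, -0.32 to 0.14).

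Siglec1, or sialoadhesin, read 127, 164 and 149 in SF1 uteri and 146, 144 and 158 in control uteri (-0.03, -0.26 to 0.20). Marco, a scavenger receptor with a collagen stalk, read 82, 86 and 85.8 in SF1 and 87.8, 107 and 87.5 in control, and was the 1 gene whose SF1 pools all lay below its control pools (-0.13, -0.34 to 0.08). Timd4, which binds phosphatidylserine on dying cells, was the dimmest at 39.9, 41.3 and 31.1 in SF1 and 41, 36.7 and 46.7 in control (-0.11, -0.35 to 0.13). Of the 9 uptake receptors, the groups were separate for Mrc1 and Marco and overlapped for the others. Over all 18193 genes, the SF1 pools all lay above the control pools for 2949 and all below them for 4307. Over all 37 genes, 6 had a mean below the mean of the array medians, namely Timd4, Itgam, Marco, Spi1, Cd163 and Siglec1. At such levels a probe set may report background more than its transcript, and an interval near 0 then does not bound the change of the transcript. No detection calls were used here.

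Further probe sets gave a second reading of some genes. There were 29 of them for 15 of the genes, of which 5 were called higher and 0 lower, against 5.88% of all probe sets called higher and 8.08% called lower. At any p, 21 had a positive and 7 a negative log2 fold change. The called ones were 2 for Fcgr2b (0.82 and 0.55), 1 for Cybb (0.83), 1 of 4 for Laptm5 (0.60) and a dim one for Ms4a7 (0.41), whose brighter probe set was not called. The remaining further probe sets of Fcgr2b (0.34 and 0.11) and Cybb (0.78) were not called. The other 3 further probe sets of Laptm5 gave 0.09, 0 and -0.98, the last with 1 control pool far above the rest. Of the 14 risen genes, 7 had another probe set, and in 3 of these another was called. For Csf1r, Fcgr1, Cd53 and Ptprc none was, although their other probe sets all had positive log2 fold changes. Averaging the probe sets of a gene kept the calls of Csf1r (0.41), Fcgr2b (0.53) and Cd53 (0.64) at smaller values, and ended that of Laptm5. In the array's naming, probe sets that end in _s_at or _x_at can take up more than 1 transcript, which applies to the probe sets used for Aif1, Fcgr2b, Laptm5, Trem2 and Marco.

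To show the start regions of risen genes, their promoters were searched for GAGGAAG, the core of the PU.1 site, on both strands. A window of 250 bases before to 50 bases after the start (RefSeq, GRCm38.p6) was available for 28 of the 37 genes. At least 1 window of 9 of these 28 genes (32.1%) held the motif, against 15.4% of all 27025 genes with a window. By call, the motif stood in 4 of 11 risen genes (36.4%) and in 5 of 17 genes not called (29.4%). These are descriptions of the letters in the window and not evidence of binding. The 250 bases before the start are printed below for the 3 risen genes with a match there, and for Aif1, the gene with the largest rise, which had none. The motif is in capitals and reads as CTTCCTC, since all 4 matches are on the opposite strand.
Laptm5, chr4:130913066-130913315, plus strand: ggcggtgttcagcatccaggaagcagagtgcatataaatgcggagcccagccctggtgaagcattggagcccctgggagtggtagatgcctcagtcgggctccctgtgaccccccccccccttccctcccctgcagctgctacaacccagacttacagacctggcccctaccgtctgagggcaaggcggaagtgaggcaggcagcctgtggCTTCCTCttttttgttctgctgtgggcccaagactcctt
Mrc1, chr2:14229164-14229413, plus strand: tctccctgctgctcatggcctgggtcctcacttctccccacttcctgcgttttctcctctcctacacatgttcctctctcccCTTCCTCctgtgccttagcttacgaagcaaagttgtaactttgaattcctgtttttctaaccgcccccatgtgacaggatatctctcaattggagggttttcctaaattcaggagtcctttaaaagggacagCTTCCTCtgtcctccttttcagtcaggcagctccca
Fcgr1, chr3:96293970-96294219, minus strand: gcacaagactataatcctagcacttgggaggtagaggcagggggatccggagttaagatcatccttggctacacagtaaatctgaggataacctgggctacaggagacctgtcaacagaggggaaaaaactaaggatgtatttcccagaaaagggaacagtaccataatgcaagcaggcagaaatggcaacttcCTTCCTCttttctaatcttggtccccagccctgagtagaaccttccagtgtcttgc
Aif1, chr17:35176053-35176302, minus strand: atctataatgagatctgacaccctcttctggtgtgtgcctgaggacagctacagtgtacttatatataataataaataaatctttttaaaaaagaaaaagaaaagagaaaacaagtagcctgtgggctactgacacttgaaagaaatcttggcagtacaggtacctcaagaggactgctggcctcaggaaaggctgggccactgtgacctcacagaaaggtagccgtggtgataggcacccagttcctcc
The match of Laptm5 lies 39 to 33 bases before its start and that of Fcgr1 56 to 50 bases before. Mrc1 has 2 matches, 168 to 162 and 36 to 30 bases before its start. In Cd53, the other risen gene with a match, it lies after the start.

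Most of the 37 genes ranked the arrays of a group in like order. Among SF1 pools, replicate 2 was the highest for 32 of the 37 genes, replicate 1 for 5 and replicate 3 for 0, whereas replicate 2 was the highest SF1 pool for 39.5% of all genes. Among control pools, replicate 2 was the lowest for 32 of the 37, against 31.6% of all genes. The median deviation of the genes from their own mean over the 6 arrays was 0.24, 0.61 and 0.10 (log2) in SF1 replicates 1 to 3 and -0.16, -0.61 and -0.10 in control replicates 1 to 3. Both groups spanned a range, and among pairs of 1 SF1 and 1 control array, the replicates 3 were closest to each other. Summed over the 37 genes, intensity lay between 30152 and 45541 in SF1 arrays and between 16906 and 25852 in control arrays, so the sums did not overlap.

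**Figure D3:**
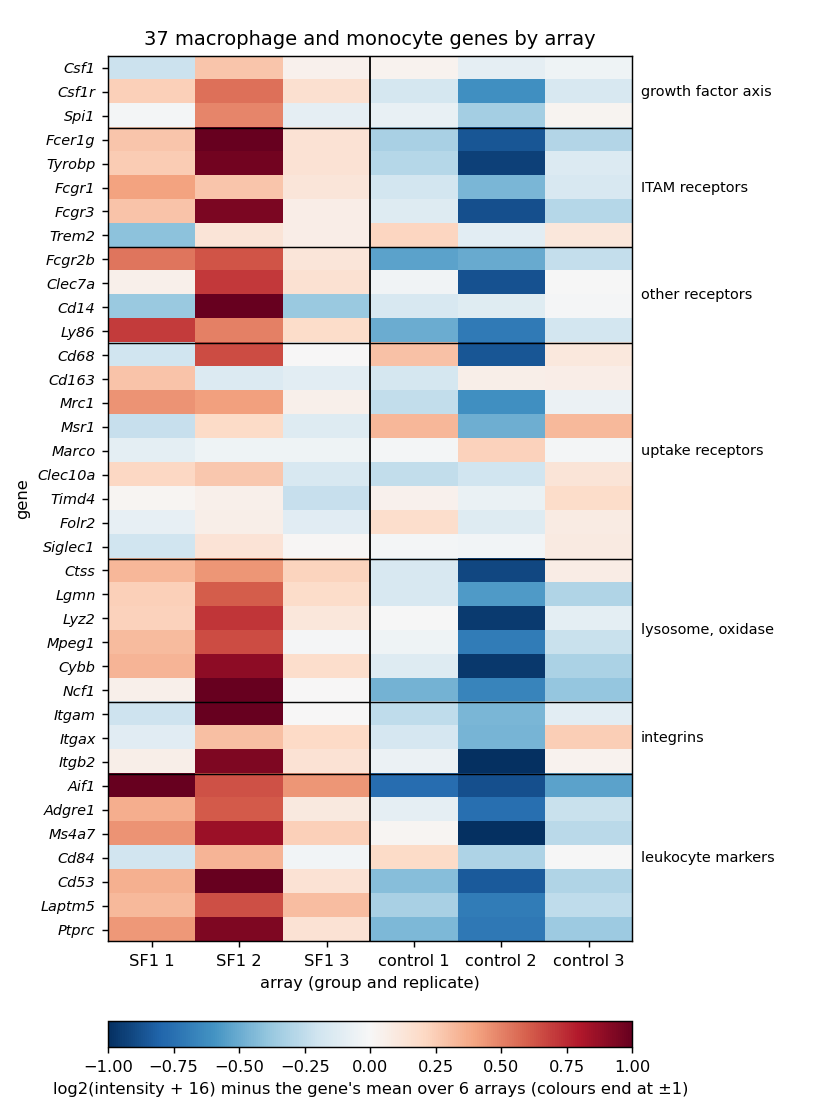
Log2(intensity + 16) of each gene in each array minus the gene's mean over the 6 arrays (colour, ending at ±1), with SF1 arrays left of control arrays and genes grouped by role. SF1 replicate 2 is the reddest column and control replicate 2 the bluest, and the uptake receptors are pale in most arrays.

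The size of this spread within groups differed by gene. SF1 replicate 2 over the mean of SF1 replicates 1 and 3 had a median of 1.31 over the 37 genes, against 1.01 over all genes. It was 2.83 for Ncf1, 2.69 for Cd14 and 2.44 for Itgam, genes that neutrophils also use, and 0.885 for Aif1, 1.01 for Fcgr1 and 1.03 for Ly86. Control replicate 2 over the mean of control replicates 1 and 3 had a median of 0.746, against 1.01 over all genes. It was lowest for Ms4a7 (0.429), Itgb2 (0.444) and Cd68 (0.46). Several neutrophil genes stood apart in SF1 replicate 2. S100a8, a calcium-binding protein that fills neutrophils, read 327, 11518 and 192 in SF1 and 112, 75.2 and 337 in control. Summed over 11 neutrophil genes, intensity was 1488, 24223 and 1154 in SF1 replicates 1 to 3 and lay between 943 and 1606 in control. S100a8 and S100a9 (9468) supplied most of the sum of SF1 replicate 2. The rest of the list was uneven, with Mmp8 at 32.5, 606 and 29.3 and Mpo at 72.8, 87.6 and 70.4 in SF1. The part of neutrophils in the values of SF1 replicate 2 was not tested.

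**Figure D4:**
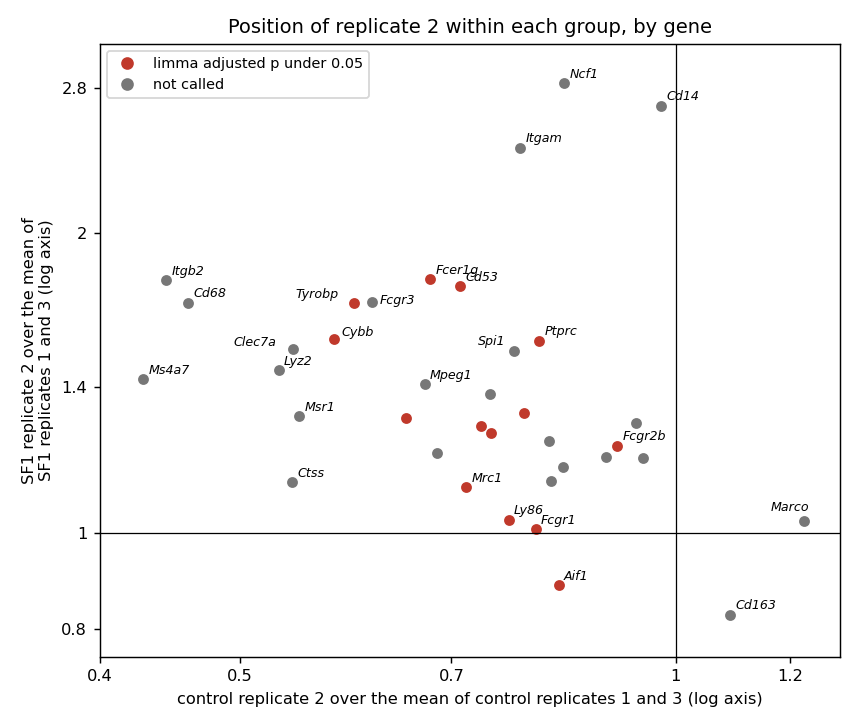
SF1 replicate 2 over the mean of SF1 replicates 1 and 3 (vertical, log axis) against control replicate 2 over the mean of control replicates 1 and 3 (horizontal, log axis), 1 point a gene, red for the 14 genes called higher. Most points lie in the upper left, and Ncf1, Cd14 and Itgam are the highest, between 2.44 and 2.83.

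The count of risen genes was also taken without these arrays. Without SF1 replicate 2, 10 of the 37 genes were called higher (limma, against 6.5% of all genes). Without control replicate 2, the count was 9 (7.11% of all genes). Without SF1 replicate 1, the count was 7 (5.63% of all genes). Leaving out both replicates 2 at once, which was decided after the data were seen, left 2 arrays a group and gave 10 called higher (6.14% of all genes) and 1 lower. The median log2 fold change of the 37 genes was then 0.28. In that fit Aif1 gave 1.42 ± 0.20 (limma adjusted p = 0.00397), Ptprc 0.70 (0.0112), Ly86 0.78 (0.0355) and Fcgr2b 0.71 (0.0334). Tyrobp gave 0.41 (0.054), Csf1r 0.37 (0.0589), Adgre1 0.39 (0.102), Mrc1 0.40 (0.15) and Fcgr1 0.43 (0.0651), which were not called, while Msr1 fell (-0.51, 0.0172). Fcer1g (0.52), Cybb (0.48), Cd53 (0.61) and Lgmn (0.44) were still called, at smaller values. With all arrays, a pseudocount of 1 ended the calls of Tyrobp, Mrc1, Cybb and Adgre1, and array weights that of Adgre1. The trend and robust settings of limma ended those of Fcer1g, Tyrobp, Cybb, Adgre1 and Cd53. Taking the replicate number as a block ended those of Csf1r, Fcer1g, Tyrobp, Mrc1, Cybb, Adgre1 and Cd53. The 6 genes called in every fit that left out 1 array were Aif1, Ptprc, Laptm5, Fcgr2b, Ly86 and Lgmn.

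Other genes of the macrophage lineage were taken from lists drawn up by function. Of 14 genes of resident macrophages, 7 rose, 1 fell and 6 were not called, with a median log2 fold change of 0.47. At any p, 4 of the 14 had a negative log2 fold change. Ccl8, a monocyte-attracting chemokine made by resident macrophages, read 1464, 558 and 510.3 in SF1 uteri and 108, 137 and 190.2 in control uteri (2.28 ± 0.36, limma adjusted p = 0.00416). C1qa, a chain of complement C1q, read 2485, 2225 and 1971 in SF1 and 1059, 868 and 1389 in control (1.02 ± 0.16, adjusted p = 0.00419), and C1qc rose by 0.94 (adjusted p = 0.0298), a call lost without any 1 of the SF1 arrays (highest adjusted p = 0.1). Mertk, a receptor for the uptake of dying cells, fell to 478, 515 and 524 in SF1, against 757, 696 and 759 in control (-0.53 ± 0.08, adjusted p = 0.003).

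Of 11 monocyte genes and recruiting signals, 3 rose and 0 fell (limma, median log2 fold change 0.24, and 5 higher and 0 lower at an unadjusted p under 0.05). Ccl12, a ligand of the monocyte receptor Ccr2, read 317, 178 and 155 in SF1 uteri and 48.2, 45.3 and 36.8 in control uteri (1.91 ± 0.22, limma adjusted p = 0.000719). S100a4 rose by 1.07 (adjusted p = 0.00192) and Ms4a6d by 1.06 (0.0284), the second a call lost without control replicate 1 or 2 (highest adjusted p = 0.0656). Ccr2 itself was not called, at 235, 344 and 295 in SF1 and 334, 386 and 272 in control (-0.18, 95% interval -0.54 to 0.18), nor was its main ligand gene Ccl2 (0.03, -0.15 to 0.20).

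Of 13 growth factor and transcription factor genes, 5 rose and 1 fell, with a median of 0.37. Ikzf1 (Ikaros) rose by 0.80 (limma adjusted p = 0.00205), Irf8, a factor for monocyte and dendritic cell fate, by 0.79 (0.00198) and Cebpb by 0.70 (0.0123). Maf, a factor of resident macrophages that other uterine cells also use, fell by 0.55 on the log2 scale (0.00338). Il34, the second ligand of Csf1r, was dim and read 103, 113 and 96.6 in SF1 and 79.4, 71.7 and 79.2 in control (0.37 ± 0.08, adjusted p = 0.0212). It was among the 5 that rose, and is given because it shares the receptor with Csf1.

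In a list of ITAM signalling genes and further receptors, 4 of 13 genes rose and 0 fell (limma, median 0.35, and 6 higher and 0 lower at an unadjusted p under 0.05). The adaptors Lcp2 (1.10, adjusted p = 0.00969) and Blnk (0.90, 0.000801) rose most together with the Fc receptor Fcgr4 (0.99, 0.0294), whose call was lost without SF1 replicate 1 or any 1 of the control arrays (highest adjusted p = 0.0886). T, B and mast cells use some of these adaptors too. Syk, the kinase that binds ITAMs, was not called (0.35, 95% interval 0.02 to 0.68). Of 4 oxidase partners, 0 were called in either direction by limma and 3 were higher at an unadjusted p under 0.05 (median 0.63). Of these, 1 was called without SF1 replicate 2, SF1 replicate 3 or control replicate 3. Of 13 lysosomal genes, 4 rose and 1 fell (median 0.12), with Ctsc (0.76, 0.0179) and Ctsh (0.57, 0.0028) at the top and Ctsd (-0.40, 0.0367) lower. The call of Ctsc was lost without SF1 replicate 1 or 2 or control replicate 1 (highest adjusted p = 0.072), that of Ctsd without any 1 array other than SF1 replicate 2 (0.105), and the count of risen lysosomal genes was 1 without SF1 replicate 1 or control replicate 1 and 2 without SF1 replicate 2.

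Genes of all leukocytes rose in number as well, with 7 of 14 higher, 1 lower and a median of 0.42. Cd52, a small surface glycoprotein, read 2077, 2562 and 1763 in SF1 uteri and 876, 692 and 1110.1 in control uteri (1.25 ± 0.18, limma adjusted p = 0.00263). Cytip (1.18, 0.000931) and the actin regulator Coro1a (1.14, 0.00656) also rose, while Lsp1, another actin-binding protein, fell (-1.16, 0.00117). Ptprc, Cd53 and Laptm5 belong to this wider group, and the part of macrophages in their rise was not tested.

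Marker lists of other cells moved in the same arrays, and their part in the macrophage result was not tested. T cell genes had 4 of 10 risen, led by Cd3g (2.06, limma adjusted p = 0.000142), with sums of 1845 to 2138 in SF1 and 1195 to 1422 in control. Natural killer cell genes had 4 of 10 risen, led by Gzmb (1.38, 0.00013), with sums of 2007 to 2145 in SF1 and 1486 to 1496 in control. Mast cell genes had 5 of 8 risen, led by Cpa3 (1.34, 0.00159), with sums of 2866 to 3282 in SF1 and 1849 to 2049 in control. None of the genes in these 3 lists fell (limma, and 0 lower at an unadjusted p under 0.05). Negative log2 fold changes at any p numbered 2 of the T cell, 4 of the natural killer cell and 0 of the mast cell genes. The median log2 fold changes of the lists were 0.25, 0.11 and 0.56 in that order. In none of these 3 lists did the sums of the groups overlap, and SF1 replicate 2 did not stand out as it did for neutrophil genes.

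Dendritic cell genes had 3 of 9 risen, with Zbtb46 highest (0.72, limma adjusted p = 0.00168), and 1 fallen, Cd83 (-2.45, 5.2e-06). Their sums were 1587 to 1770.0 in SF1 and 2404 to 2471 in control, an order set by Cd83. Without Cd83 the other 8 genes summed to 1384 to 1522 in SF1 and 1117 to 1182 in control. Without SF1 replicate 1, 1 of them was called higher. Eosinophil genes had 1 of 5 risen, Siglecf (0.39, 0.0388), with sums of 210.4 to 240 in SF1 and 194 to 255 in control. That call was lost without SF1 replicate 1 or 2 or control replicate 1 or 3 (highest adjusted p = 0.115). Of 11 neutrophil and 7 B cell genes, 0 were called (limma, and 1 and 0 higher, with 0 lower, at an unadjusted p under 0.05). B cell sums were 781 to 954 in SF1 and 842 to 891 in control.

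The labels name the tissue as uterus, and marker genes of its own cells were read in all arrays. Smooth muscle genes were not called in either direction (0 of 10 by limma, and 2 higher and 1 lower at an unadjusted p under 0.05), with sums of 38776 to 40880.0 in SF1 and 36494 to 39294 in control. Epithelial genes had 5 of 9 risen and 1 fallen, with Muc1 highest (1.93, 0.000112), and sums of 20268 to 22330.0 in SF1 and 16688 to 17564 in control. The fallen one, Krt19 (-0.36, 0.0355), lost its call without SF1 replicate 1 or 3 or control replicate 1 or 3 (highest adjusted p = 0.114). Stromal genes had 6 of 10 fallen and 0 risen, with Hoxa11 lowest (-1.05, 0.0019), and endothelial genes 8 of 10 fallen and 0 risen, with Cdh5 lowest (-0.83, 0.003). Their sums were 46650.0 to 49909 and 5099 to 5514 in SF1, against 55776 to 58386 and 7426 to 7936 in control.

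**Figure D5:**
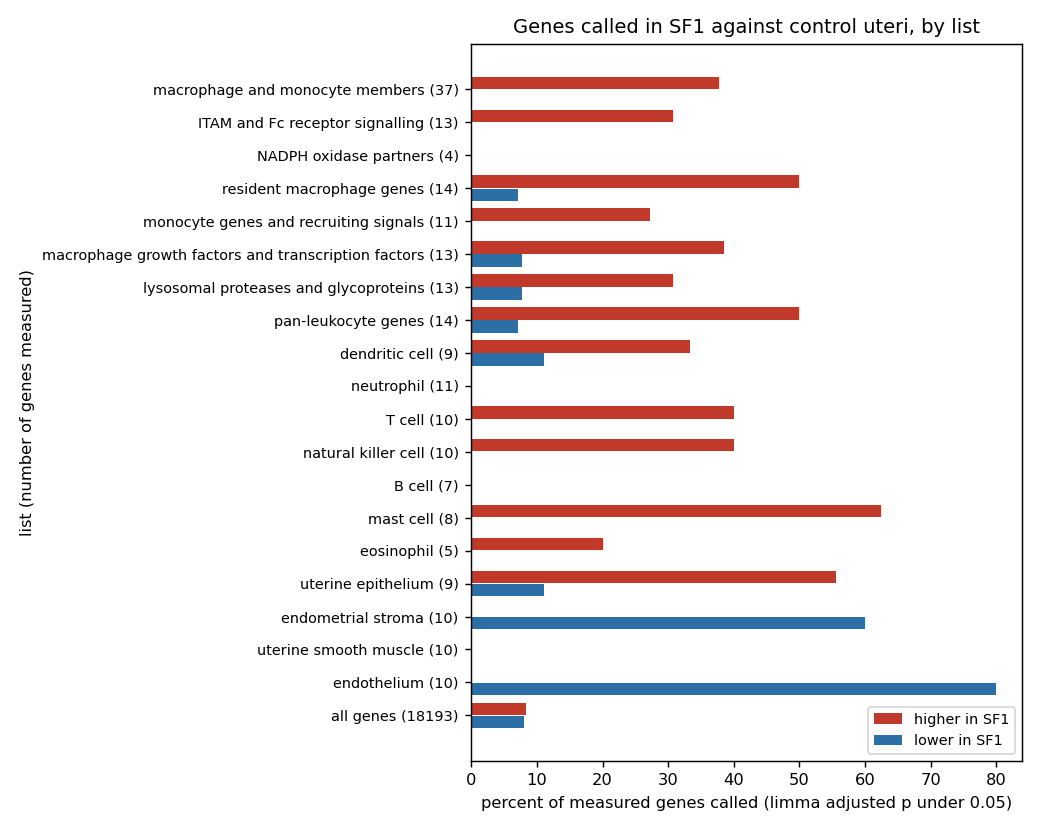
Percent of measured genes called higher (red) or lower (blue) in SF1 uteri (limma adjusted p under 0.05) in each list, with the number of measured genes in brackets and all genes as the last row. The macrophage and monocyte genes stand at 37.8% higher and 0% lower, against 8.37% and 8.11% of all genes.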

How the data were processed

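Total RNA was hybridised to the 1-colour Affymetrix Mouse Genome 430 2.0 array, per the labels' protocols. The deposited table holds 1 linear intensity for each of 45101 probe sets on 6 arrays. How the authors corrected background, normalized and summarized these intensities is not stated in the sources used here, and such steps bear most on dim genes. With 64 control probe sets set aside, 45037 were tested. Names came from the platform annotation. Among probe sets with a single symbol, the one with the largest mean log2 value stood for its gene.

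Values were taken as log2(intensity + 16), not normalized again, and compared as SF1 minus control in limma 3.58.1 (lmFit, eBayes; R 4.3.3). Benjamini-Hochberg adjustment ran over all tested probe sets, and calls needed an adjusted p under 0.05. Every adjusted p given is limma's. Precision is limited by the number of arrays. The fit was tested on simulated data, where it called 6% of 1.3-fold, 62% of 1.5-fold, 96% of 2-fold and 100% of 4-fold changes. The noise was drawn independently for each probe set and array, so a shift shared by genes was not part of that test. Python 3.11.15, pandas 2.3.3, scipy 1.17.1 and matplotlib 3.10.9 made the tables and plots.

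The members and lists were chosen with earlier results of these data known. All members were to be named and, from other lists, up to the 3 called genes that rose most and the 2 that fell most. Ccr2, Ccl2, Syk, Il34, S100a8, S100a9, Mmp8 and Mpo were named outside that rule after their values were seen. Alternatives tried were quantile normalization, median centring, a filter on dim probe sets, pseudocounts of 1 and 64, a replicate block, trend and robust settings, weighted arrays, probe sets averaged per gene, an adjusted p under 0.01 and leaving out arrays.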

Additional observations from a re-analysis of the deposited data

How the results depend on the processing

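No called member changed sign under any alternative tried. The count of members called higher was 14, and it was 7 with the replicate number as a block, 9 with trend and robust, 5 at an adjusted p under 0.01, and 7 to 15 over the fits that left out 1 array. Members called lower numbered 0, except for 1 without both replicates 2, where the members' median log2 fold change was 0.285, against 0.633 with all arrays and 0.438 to 0.738 with 1 array left out. The labels give no pairing of pools by replicate number. Same-numbered arrays had correlations of deviations of -0.06, -0.10 and -0.18, and the other pairs of arrays -0.03 to 0.15. With so few arrays, these values cannot decide whether same-numbered pools shared a batch. Over all genes, 848 were called higher and 710.0 lower at an adjusted p under 0.01, 932 lower with the replicate block, 851 lower without both replicates 2, and 1025 to 1294 higher and 908 to 1118 lower with 1 array left out. Of all calls, 50.8% were higher, and 62.8% after median centring, where 17 members were higher and 0 lower. Over single members and alternatives, 182 calls were kept and 56 lost, and over 44 named genes of other lists 674 were kept and 67 lost, with no change of sign. For Laptm5 the mean of its probe sets gave 0.11, which was not called. The causes were not tested. The other counts of the lists stayed within 1.5 times in 556 cases and moved in 56. The number of arrays and dim probe sets limit what can be called.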

Other observations

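Some probe sets read high in 1 pool. One of the 5 Laptm5 probe sets, which does not represent the gene above, read 171, 167 and 154 in SF1 uteri and 220.0, 1003 and 170.0 in control uteri, so that control replicate 2 was the highest array for it and the lowest for the gene's brightest probe set. Chil3, a chitinase-like protein of activated macrophages and neutrophils, read 24.6, 452 and 24.3 in SF1 and 26.1, 21.3 and 300.1 in control. It was high in 1 pool of each group, and the limma adjusted p was 0.913. Gpnmb, a glycoprotein of lipid-laden macrophages, read 424, 1281 and 1011 in SF1 and 1235, 604 and 1179.8 in control, with overlapping groups and a log2 fold change of -0.22 (95% interval -1.13 to 0.69). These 3 were picked after their values were seen.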
